A study of Mus musculus with 7 samples.

Results

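Protein kinase C (PKC) mRNAs were followed in hippocampal synaptoneurosomes, a brain fraction enriched in nerve endings that have sealed and carry part of the postsynaptic cell. The 6 genes described, Prkca, Prkcb, Prkcd, Prkce, Prkci and Prkcz, were found by matching Ensembl identifiers, without version, to these symbols, and are 6 of the 22248 genes in the gene table. The transcript table lists 45 transcripts of these genes, of which 25 had counts and 15 passed the filter on low counts. The libraries came from wild-type female C57Bl/6J mice that received either AM6545, a cannabinoid CB1 receptor antagonist that reaches the brain poorly, in a sub-chronic schedule (n = 4, replicates B, D, E and F) or vehicle (n = 3, replicates B, D and E). No library came from untreated mice, and the dose, the length of treatment, the ages and the number of mice behind a library are not given in the sources used here. The series title sets the work in cognitive performance and hippocampal plasticity, and the comparison made here asks which PKC mRNAs of the synaptic fraction differed between AM6545 and vehicle. Nothing states that the replicates of a group came from separate animals. Each p-value therefore judges the group difference against the spread between these libraries, which may be technical.

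PKC enzymes add phosphate to serine and threonine residues and translate lipid signals at the membrane into changes in other proteins. Classical isoforms (from Prkca and Prkcb, among others) respond to calcium and diacylglycerol, a calcium-independent class (from Prkcd, Prkce, Prkch and Prkcq) to diacylglycerol alone, and atypical isoforms (from Prkci and Prkcz) to neither, being positioned by partner proteins such as p62 and Par6. Receptors coupled to Gq supply the diacylglycerol through phospholipase C, and in hippocampal neurons PKC has been studied for transmitter release, receptor trafficking and long-term potentiation.

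Of these genes, 3 make alternative proteins that the transcript table separates, and the stretches where they part are shown because the results below turn on them. Prkcb makes PKCβI (transcript Prkcb-201, 671 codons) and PKCβII (Prkcb-202, 673 codons). They share 1863 coding bases and part at codon 622, where the last 150 and 156 coding bases before the stop codon come from alternative 3′ exons. The end of each coding sequence is given from GENCODE M21, 5′ to 3′, with the isoform's own bases in capitals.
Prkcb-201: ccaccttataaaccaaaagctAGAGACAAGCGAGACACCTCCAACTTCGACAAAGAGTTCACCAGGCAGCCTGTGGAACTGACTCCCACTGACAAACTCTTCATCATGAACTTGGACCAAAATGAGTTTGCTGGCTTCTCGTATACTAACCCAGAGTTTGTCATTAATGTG
Prkcb-202: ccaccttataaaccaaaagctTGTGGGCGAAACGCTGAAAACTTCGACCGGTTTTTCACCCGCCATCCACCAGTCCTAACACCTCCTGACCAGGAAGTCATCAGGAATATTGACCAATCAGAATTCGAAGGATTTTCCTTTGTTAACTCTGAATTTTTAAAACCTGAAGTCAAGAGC

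Prkcz makes full-length PKCζ (Prkcz-201, 592 codons) and PKMζ (Prkcz-202, 409 codons), a kinase without the regulatory part that is made in brain from an internal start of transcription and has been studied for the upkeep of long-term potentiation. In the annotation the coding sequence of PKMζ was identical to the end of that of PKCζ. Its first codon is codon 184 of PKCζ, after 549 coding bases, and is in capitals here.
Prkcz-201: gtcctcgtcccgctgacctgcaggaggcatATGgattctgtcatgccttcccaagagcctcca
The RefSeq starts of these transcripts (GRCm38.p6) lie 15639 bases apart on the minus strand, and are 67 and 17 bases from GENCODE's. The 250 bases before each are given 5′ to 3′, at chr4:155361429-155361678 for Prkcz-201 and chr4:155345790-155346039 for Prkcz-202, with matches to the motifs searched in capitals.
Prkcz-201: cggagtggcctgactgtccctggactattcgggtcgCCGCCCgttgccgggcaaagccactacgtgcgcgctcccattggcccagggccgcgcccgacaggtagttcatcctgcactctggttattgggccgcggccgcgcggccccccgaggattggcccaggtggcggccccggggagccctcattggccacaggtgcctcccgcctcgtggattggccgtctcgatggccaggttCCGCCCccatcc
Prkcz-202: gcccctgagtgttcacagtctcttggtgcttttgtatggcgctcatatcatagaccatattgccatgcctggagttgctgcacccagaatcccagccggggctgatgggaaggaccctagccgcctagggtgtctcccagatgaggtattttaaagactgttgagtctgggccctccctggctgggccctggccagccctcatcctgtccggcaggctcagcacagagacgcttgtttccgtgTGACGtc
The GC content of the windows was 70.8% and 58.0%. Both strands were searched for the cyclic AMP response element TGACGTCA, its core TGACG (which the full element contains), the E-box CACGTG, the GC box GGGCGG and the TATA box TATAAA. The window of Prkcz-201 held the GC box at 214 and 12 bases before the start, and that of Prkcz-202 held the core TGACG at 7 bases before it. The full element, the E-box and the TATA box had no match in either window. The last letters of the Prkcz-202 window match the beginning of the full element. The search stopped at the start of transcription, so an element that runs across it could not be found. Among 32851 such windows, 32.7% held the GC box, 17.8% the core, 12.4% the TATA box, 6.0% the E-box and 1.5% the full element.

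Prkcd-201 (700 codons) differs from the main transcript Prkcd-207 (674 codons) by 78 coding bases, in capitals here from the same annotation.
Prkcd-201: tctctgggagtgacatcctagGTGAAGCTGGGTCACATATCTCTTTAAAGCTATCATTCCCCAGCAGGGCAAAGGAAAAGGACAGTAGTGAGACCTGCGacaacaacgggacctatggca

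Library totals lay between 20678120 and 25890900 counts for AM6545 and between 19174649 and 25894733 for vehicle. Vehicle replicate B stood apart on the first principal component of log2 CPM (counts normalised to library size with TMM factors), at 36.1 against -19.1 to 10.04 for the others, and had the highest share of mitochondrially encoded counts, 9.83%. The trend of level with GC content, as a log2 slope per 10 percentage points, was -0.12 to -0.03 in AM6545 libraries and 0.05 to 0.13 in vehicle libraries, so values corrected for GC content and length are given where they differ by over 1.5 times from the log2 fold change of a named gene. This correction was not made for single transcripts. All 5 excitatory neuron markers were found, and their summed level was 3845 to 4148 CPM in AM6545 and 4167 to 4923 in vehicle, without overlap. The most abundant of these 5 was Nrgn, at a mean of 1519 CPM. It was the only 1 of them with an unadjusted edgeR p under 0.05, against 14.6% of all genes. With Nrgn left out, the summed level of the remaining excitatory neuron markers overlapped between the groups. Oligodendrocyte markers (5 of 5) summed to 16796 to 19837 CPM in AM6545 and 16501 to 22623 in vehicle, and choroid plexus markers (5 of 5) to 403 to 1908 and 1526 to 2720. The 5 endothelial markers summed to at most 15.4 CPM in any library. In such a bulk fraction, fewer particles of a type and less RNA in each cannot be told apart, and the part of these library properties in the PKC results was not tested.

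Levels were first compared between genes per length, as transcript counts per kilobase scaled to the same total in each library (TPM), with means over all 7 libraries. Prkcb was the most abundant of the 6, at 513 ± 41.5 TPM (SD, n = 7), and made up 66.5% ± 0.907 (SD, n = 4) of their summed TPM in AM6545 and 67.0% ± 0.965 (SD, n = 3) after vehicle. Prkcz followed at 131 ± 13.6 TPM (SD, n = 7) and Prkce at 71.2 ± 7.16 TPM (SD, n = 7). The ranges of these 3 genes did not overlap, and Prkcb lay 3.91-fold above Prkcz, Prkcz 1.84-fold above Prkce and Prkce 3.06-fold above Prkcd. Prkcd had 23.3 ± 6.43 TPM (SD, n = 7), Prkca 16.4 ± 1.54 (SD, n = 7) and Prkci 13.9 ± 3.41 (SD, n = 7). These last 3 were close: Prkcd was above Prkca in 6 of 7 libraries and Prkca above Prkci in 5 of 7, with overlapping ranges.

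**Figure D1:**
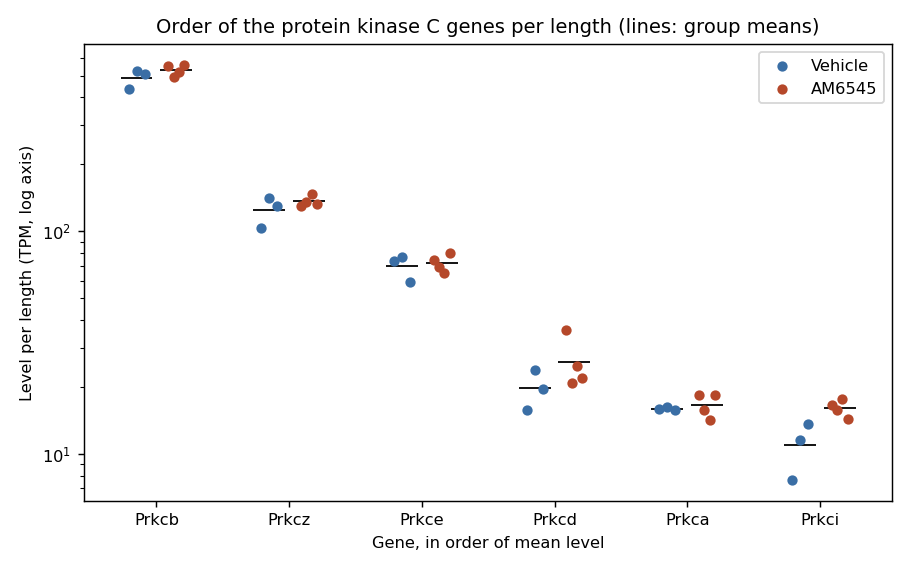
Level per length of each PKC gene (y axis, TPM, log scale) in every library, with genes on the x axis in order of mean level, vehicle libraries in blue, AM6545 libraries in red and lines at group means. Prkcb, Prkcz and Prkce are separated from each other and from the rest, while Prkcd, Prkca and Prkci overlap.

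By class, the classical pair summed to 548 ± 32.7 TPM (SD, n = 4) after AM6545 and 506 ± 47.5 (SD, n = 3) after vehicle, the calcium-independent pair to 98.1 ± 9.96 (SD, n = 4) and 89.7 ± 10.99 (SD, n = 3), and the atypical pair to 152 ± 8.33 (SD, n = 4) and 136 ± 21.7 (SD, n = 3). Each class overlapped between groups. Prkcq, which is not among the 6 and encodes a calcium-independent isoform best known from T cells, had 10.7 ± 1.99 TPM (SD, n = 7), and Prkch, of the same class, 1.12 ± 0.107 (SD, n = 7).

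All 6 genes passed the filter on low counts, and none had a Benjamini-Hochberg adjusted p under 0.05 in edgeR's quasi-likelihood test of AM6545 against vehicle, a call made for 0.00682% of the 14654 genes tested. At an unadjusted p under 0.05 there was 1 of 6, Prkci, against 14.6% of all genes (5.86% higher and 8.70% lower in AM6545), and DESeq2 likewise gave 0 by adjusted and 1 by unadjusted p. The groups overlapped for all 6, while they did not overlap for 13.8% of all genes (6.63% higher and 7.19% lower in AM6545). The log2 fold change of AM6545 over vehicle was above 0 for 4 members and below 0 for 2, with a median of 0.06 against 0.01 over all genes tested. The median size of the difference, without sign, was 0.11 for the members and 0.16 for all genes.

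Among classical genes, Prkca (ENSMUSG00000050965.15, chr11:107933387-108343928, minus strand, GRCm38) encodes PKCα, which moves to the membrane when calcium rises. It measured 80.1, 66.9, 59.4 and 78.7 CPM in AM6545 replicates B, D, E and F and 80.6, 69.6 and 72.1 in vehicle replicates B, D and E. The vehicle values lay inside or next to the AM6545 range. The log2 fold change was -0.06 (SE 0.12, 95% interval -0.32 to 0.20, edgeR adjusted p 0.846), and it was 0.01 without vehicle replicate B and -0.0002 after correction for GC content and length. Prkca-201 (672 codons) took 99.7% to 100% of the gene's counts in every library. Prkca shares 30 exon bases with Apoh on the opposite strand, whose reads cannot be told apart without strand.

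Prkcb (ENSMUSG00000052889.12, chr7:122288751-122634402, plus strand, GRCm38) measured 758, 653, 700 and 742 CPM in AM6545 replicates B, D, E and F and 616, 693 and 735 in vehicle replicates B, D and E. The groups overlapped, with vehicle replicate B lowest. AM6545 over vehicle gave a log2 fold change of 0.07 (SE 0.10, 95% interval -0.16 to 0.29, edgeR adjusted p 0.783), with 0.002 without vehicle replicate B and -0.02 after correction for GC content and length.

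Among calcium-independent genes, Prkcd (ENSMUSG00000021948.18, chr14:30595354-30626210, minus strand, GRCm38) encodes PKCδ, and its mRNA is abundant in thalamus. It measured 51.5, 29.3, 34.2 and 30.7 CPM in AM6545 replicates B, D, E and F and 26.2, 34.0 and 29.5 in vehicle replicates B, D and E. AM6545 replicate B alone lay above the others, whose groups overlapped. The log2 fold change was 0.28 (SE 0.19, 95% interval -0.13 to 0.69, edgeR adjusted p 0.491), and 0.07 without AM6545 replicate B. The 4 thalamus markers other than Prkcd itself summed to 26.3 CPM in AM6545 replicate B, against 26.6 to 41.2 in the others. The part of thalamic RNA in the Prkcd values was not tested.

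Prkce (ENSMUSG00000045038.15, chr17:86167785-86657919, plus strand, GRCm38) encodes PKCε, an isoform that also binds actin. It measured 155, 148, 132 and 168 CPM in AM6545 replicates B, D, E and F and 203, 170 and 132 in vehicle replicates B, D and E. The vehicle values spanned the whole AM6545 range, with replicate B highest and replicate E lowest. AM6545 over vehicle gave a log2 fold change of -0.16 (SE 0.14, 95% interval -0.46 to 0.14, edgeR adjusted p 0.587). It was -0.01 without vehicle replicate B and -0.31 without vehicle replicate E (edgeR adjusted p 0.118).

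Among atypical genes, Prkci (ENSMUSG00000037643.15, chr3:30995747-31052959, plus strand, GRCm38) encodes PKCι, which forms the cell polarity complex with Par3 and Par6. It measured 40.3, 37.4, 41.7 and 34.2 CPM in AM6545 replicates B, D, E and F and 21.4, 28.0 and 34.2 in vehicle replicates B, D and E. The groups met at AM6545 replicate F (34.19) and vehicle replicate E (34.20), and the other 2 vehicle libraries lay below all 4 AM6545 libraries. The means were 38.4 ± 3.33 CPM (SD, n = 4) and 27.9 ± 6.39 (SD, n = 3), a fold of 1.38. The log2 fold change was 0.46 (SE 0.15, 95% interval 0.15 to 0.78), with an unadjusted p of 0.00745 and an edgeR adjusted p of 0.231, at rank 473 of the 14654 genes by p. The value depended on which vehicle library was in the fit: it was 0.31 without replicate B (edgeR adjusted p 0.722) and 0.64 without replicate E, where the edgeR adjusted p was 0.0247 and 6.38% of all genes were called. Prkci had the lowest GC content of the 6 genes, 44.5% against a median of 50.4% over all genes tested, and with that and length corrected for, its log2 fold change was 0.33 (edgeR adjusted p 0.728).

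Prkcz (ENSMUSG00000029053.17, chr4:155260129-155361361, minus strand, GRCm38) measured 186.8, 194.2, 207.6 and 188.8 CPM in AM6545 replicates B, D, E and F and 169, 198 and 191 in vehicle replicates B, D and E. The groups overlapped, with vehicle replicate B lowest. AM6545 over vehicle gave a log2 fold change of 0.06 (SE 0.10, 95% interval -0.14 to 0.27, edgeR adjusted p 0.779), with -0.0004 without vehicle replicate B and 0.01 after correction for GC content and length.

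**Figure D2:**
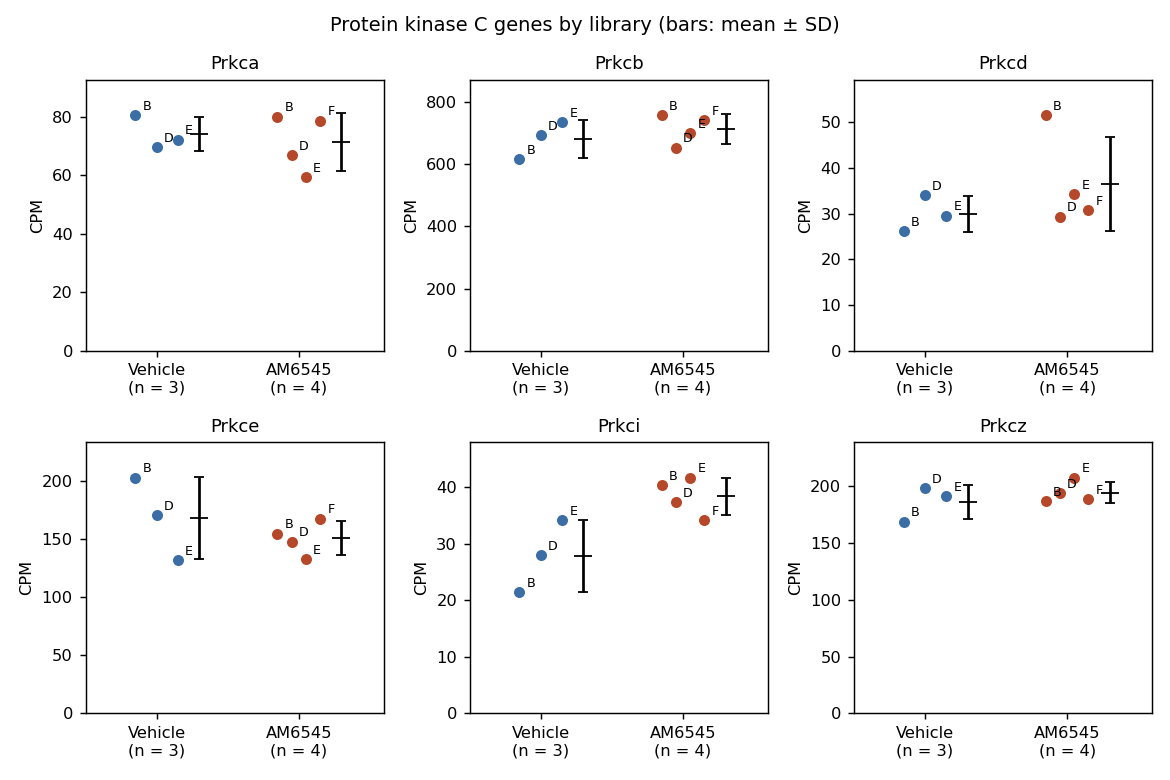
Normalised level of each PKC gene (y axis, CPM, from 0) in every library, labelled by replicate letter, for vehicle (blue, n = 3) and AM6545 (red, n = 4), with bars at the mean ± SD. Prkci is the gene whose groups come nearest to separating, and AM6545 replicate B is high for Prkcd.

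**Figure D3:**
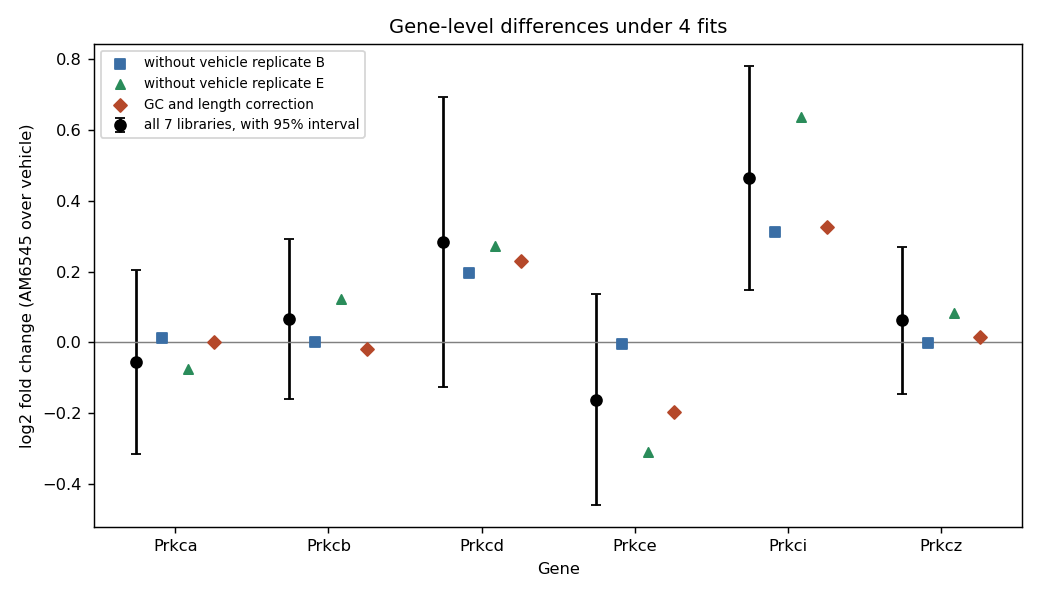
Log2 fold change of AM6545 over vehicle (y axis) for each PKC gene (x axis), with black points and 95% intervals from all 7 libraries and symbols for fits without vehicle replicate B, without vehicle replicate E and with GC and length correction. The interval of Prkci lies above 0 at 0.15 to 0.78, and the other 5 intervals include 0.

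At the level of single transcripts, none of the 15 tested had an edgeR adjusted p under 0.05, against 0.0177% of 33962 transcripts, and DESeq2 called none of the 12 recomputed with it. Unadjusted p-values under 0.05 were found for 4 of 15, where 8.39% of all transcripts had one: Prkcb-201, Prkci-201 and Prkcz-201 were higher and Prkcz-209 was lower. The same 4 were those whose groups did not overlap, against 10.8% of all transcripts. Leaving out 1 library at a time gave between 2 and 6 unadjusted. Shares of a gene's counts were tested for the 10 transcripts with a mean share of at least 5%, and the exact permutation test of 4 against 3 libraries cannot go below p = 0.0286. None of the 10 share differences had an adjusted p under 0.05, and 2 reached the smallest p, those of Prkcb-202 and Prkcz-209.

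The transcript of PKCβII carried most Prkcb counts. Prkcb-202 took 87.9%, 87.4%, 88.8% and 87.6% of the gene's counts in AM6545 replicates B, D, E and F and 84.1%, 85.5% and 87.1% in vehicle replicates B, D and E. All 4 AM6545 shares lay above the vehicle shares, the gap between the groups being the small one between vehicle replicate E and AM6545 replicate D. The difference was 2.37 percentage points (87.9% ± 0.63 against 85.5% ± 1.5, SD, n = 4 and 3), with a two-sided exact permutation p of 0.0286 and an adjusted p of 0.143. The transcript's own level had a log2 fold change of 0.11 (SE 0.10, edgeR adjusted p 0.801).

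PKCβI had under 5% of the counts and was singled out after its values were seen. Prkcb-201 measured 22.8, 19.8, 27.1 and 22.2 CPM in AM6545 replicates B, D, E and F and 13.9, 15.7 and 17.8 in vehicle replicates B, D and E. Each AM6545 value exceeded each vehicle value. The log2 fold change was 0.54 (SE 0.14, 95% interval 0.20 to 0.88), with an unadjusted p of 0.00700 and an edgeR adjusted p of 0.559, and lay between 0.45 and 0.63 when each library in turn was left out. Of the counts for PKCβI and PKCβII together, PKCβI took 3.31%, 3.33%, 4.15% and 3.31% in AM6545 replicates B, D, E and F and 2.60%, 2.57% and 2.74% in vehicle replicates B, D and E. The difference of 0.89 percentage points had a two-sided exact permutation p of 0.0286, or 0.114 adjusted over the 4 such isoform ratios, which were added after the values were seen.

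The remaining Prkcb counts lay mostly in Prkcb-208, a transcript with a retained intron, and Prkcb-205, which holds the coding sequence of PKCβII but is annotated as a target of nonsense-mediated decay. Prkcb-208 took 4.61%, 5.49%, 4.01% and 5.76% in AM6545 replicates B, D, E and F and 11.6%, 6.65% and 4.74% in vehicle replicates B, D and E. Vehicle replicate B was far above the rest, and vehicle replicate E lay within the AM6545 range. The difference was -2.71 percentage points (exact permutation p 0.114, adjusted p 0.163) and -0.73 without vehicle replicate B. With the counts of Prkcb-205 added to those of Prkcb-202, the coding sequence of PKCβII took 92.4%, 91.4%, 92.1% and 91.2% in AM6545 replicates B, D, E and F and 86.1%, 91.1% and 92.8% in vehicle replicates B, D and E. These groups overlapped, and the difference was 1.81 percentage points (exact permutation p 0.429). Shares scaled by transcript length gave Prkcb-202 a difference of 5.51 percentage points and Prkcb-208 one of -6.20, each with an exact permutation p of 0.114. Prkcb-205 had a mean share of 4.11%, with a log2 fold change of -0.16 (SE 0.39, edgeR adjusted p 0.938).

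PKMζ carried most Prkcz counts in both groups. Prkcz-202 measured 126, 122, 136 and 131 CPM in AM6545 replicates B, D, E and F and 126, 140 and 130 in vehicle replicates B, D and E. The groups overlapped almost fully, and the log2 fold change was -0.04 (SE 0.07, 95% interval -0.21 to 0.14, edgeR adjusted p 0.916). Its share of Prkcz counts was 66.0% ± 2.99 (SD, n = 4) after AM6545 and 71.1% ± 2.77 (SD, n = 3) after vehicle, a difference of -5.13 percentage points (exact permutation p 0.0857, adjusted p 0.163), or -2.003 when shares were scaled by transcript length (exact permutation p 0.229).

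The transcript of full-length PKCζ was higher in every AM6545 library than in any vehicle library. Prkcz-201 measured 46.3, 60.1, 59.7 and 42.7 CPM in AM6545 replicates B, D, E and F and 26.6, 41.8 and 41.0 in vehicle replicates B, D and E. AM6545 replicate F lay just above vehicle replicate D, and vehicle replicate B was lowest. AM6545 over vehicle gave a log2 fold change of 0.52 (SE 0.20, 95% interval 0.03 to 1.0), with an unadjusted p of 0.0401 and an edgeR adjusted p of 0.575, and it was 0.34 without vehicle replicate B. The unadjusted edgeR p was 0.0983 without vehicle replicate B, 0.0924 without AM6545 replicate D and 0.0914 without AM6545 replicate E. It was under 0.05 in the other fits that left out 1 library. Of the counts for PKCζ and PKMζ together, PKCζ took 26.8%, 33%, 30.5% and 24.6% in AM6545 replicates B, D, E and F and 17.5%, 23.0% and 24.0% in vehicle replicates B, D and E. The groups did not overlap, and the difference of 7.29 percentage points had an exact permutation p of 0.0571 and an adjusted p of 0.114. Per length, the same ratio was 38.4% ± 4.33 (SD, n = 4) and 29.7% ± 4.36 (SD, n = 3).

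Prkcz-209, a transcript of 790 bases annotated without a coding sequence, measured 14.3, 12.8, 12.5 and 14.0 CPM in AM6545 replicates B, D, E and F and 16.03, 17.3 and 16.6 in vehicle replicates B, D and E. All AM6545 values lay below all vehicle values. The log2 fold change was -0.31 (SE 0.10, 95% interval -0.55 to -0.07), with an unadjusted p of 0.0170 and an edgeR adjusted p of 0.559, and stayed between -0.34 and -0.28 when each library in turn was left out. The unadjusted edgeR p was 0.0516 without AM6545 replicate D, 0.0597 without vehicle replicate D and 0.0906 with the replicate block. It was under 0.05 in the other fits that left out 1 library. The share of Prkcz-209 in Prkcz counts was 6.90% ± 0.755 (SD, n = 4) after AM6545 and 8.96% ± 0.449 (SD, n = 3) after vehicle (exact permutation p 0.0286, adjusted p 0.143). Scaled by transcript length, that difference was -6.33 percentage points, with the same exact permutation p. Values of Prkcz transcripts are uncertain in part, since a stretch of 1755 bases of Prkcz is 98.6% identical to the processed pseudogene Prkcz2, which was not analysed here, and counting could split their reads.

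**Figure D4:**
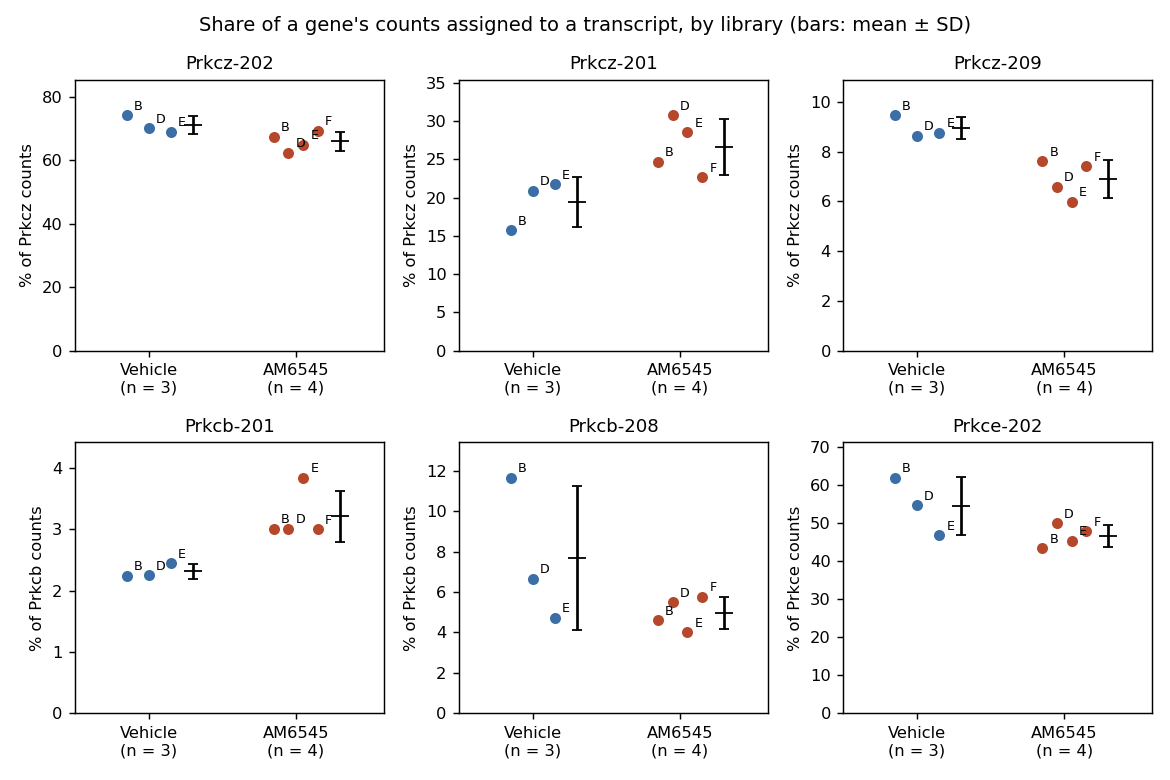
Share of a gene's counts assigned to a transcript (y axis, percent, from 0) in every library, labelled by replicate letter, for vehicle (blue, n = 3) and AM6545 (red, n = 4), with bars at the mean ± SD. The groups are apart for Prkcz-201, Prkcz-209 and Prkcb-201, and vehicle replicate B is the highest library for Prkcb-208 and Prkce-202.

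The 2 main Prkce transcripts have the same coding sequence of 737 codons and differ on both sides of it. Prkce-202 has 808 bases before it and 3232 after the stop codon, and Prkce-201 has 219 and 728. The long form took 43.4%, 49.96%, 45.4% and 47.8% of Prkce counts in AM6545 replicates B, D, E and F and 61.9%, 54.7% and 46.9% in vehicle replicates B, D and E. Vehicle replicates B and D were above all AM6545 libraries and replicate E among them. The difference was -7.86 percentage points (exact permutation p 0.114, adjusted p 0.163), and -4.16 without vehicle replicate B. AM6545 over vehicle gave a log2 fold change of -0.41 (SE 0.23, edgeR adjusted p 0.687) for Prkce-202 and 0.11 (SE 0.10, edgeR adjusted p 0.819) for Prkce-201. Prkce shares 472 exon bases with AC154542.1 on the same strand, so reads from there could be counted for either.

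Prkci and Prkcd were each dominated by 1 coding transcript. Prkci-201 (595 codons) took at least 99.7% of Prkci counts in each library and had a log2 fold change of 0.47 (SE 0.16, 95% interval 0.09 to 0.86, edgeR adjusted p 0.559). Up to 164 bases of Prkci match transcripts of 7 other genes at 95.1% to 96.1% identity, so a few reads could be counted for either. In the transcript table its groups did not overlap, the nearest libraries being AM6545 replicate F at 34.1 CPM and vehicle replicate E at 33.7. Prkcd-207 took 95.8% ± 2.28 of Prkcd counts in AM6545 (SD, n = 4) and 96.2% ± 0.937 in vehicle (SD, n = 3; exact permutation p 0.886). Prkcd-201, with the insert shown above, took 7.31% in AM6545 replicate B and 1.99% to 4.53% in the other libraries. For shares in a single library, the widest 95% Wilson interval among these transcripts spanned 3.96 percentage points, in Prkce, and such intervals cover counting error only.

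Around the PKC genes, 7 lists of the pathway held 95 genes, of which 92 passed the filter on low counts (Pkn3, Dgkk and Rasgrp4 did not). None had an edgeR adjusted p under 0.05, and 14 (15.2%) had an unadjusted p under 0.05, 6 higher and 8 lower, against 14.6% of all genes. Their median log2 fold change was 0.05. Without vehicle replicate B, 3 of the 92 (3.26%) had an unadjusted p under 0.05, against 6.46% of all genes in that fit. With the correction for GC content and length there were 6 (6.52%), against 6.74% of all genes. DESeq2 called 2 of the 92 (2.17%), Ppp1r14a and Ppp1r14b, against 1.40% of all genes, and limma-voom called 1, Ppp1r14a, against 0.805%. Without vehicle replicate E, edgeR called 9 of the 92 (9.78%), where 6.38% of all genes were called, and without vehicle replicate B it called none, as of all genes.

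None of the 8 other PKC genes and related kinases tested had an unadjusted p under 0.05 (median log2 0.06). The protein kinase D gene Prkd1 had a log2 fold change of 0.12 (edgeR adjusted p 0.764), or 0.07 without vehicle replicate B and 0.002 after correction for GC content and length. Upstream, none of the 18 genes for Gq subunits, phospholipase C and inositol trisphosphate receptors had an unadjusted p under 0.05 (median log2 0.03). Gna11, a Gq-class subunit, had a log2 fold change of -0.20, the phospholipase gene Plcb1 0.12 and the calcium release channel gene Itpr1 -0.23 (edgeR adjusted p 0.354). Without vehicle replicate B these 3 values were -0.10, 0.004 and -0.14, and Itpr1 had -0.09 after correction for GC content and length.

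Among the 11 diacylglycerol kinases and lipases, 2 had an unadjusted p under 0.05, both kinases that convert diacylglycerol to phosphatidic acid (median log2 0.06). Dgkb measured 124, 102, 106 and 105 CPM in AM6545 replicates B, D, E and F and 78.2, 86.1 and 99.2 in vehicle replicates B, D and E, without overlap (log2 fold change 0.31, SE 0.11, edgeR adjusted p 0.261, and 0.0492 without vehicle replicate E). Dgkg had a log2 fold change of 0.33 (SE 0.12, edgeR adjusted p 0.265) and overlapping groups, with an unadjusted p of 0.0576 without vehicle replicate B. Dgkz, the other abundant kinase of this list, had -0.06, or -0.09 without vehicle replicate B. After correction for GC content and length Dgkb had 0.20 and Dgkz 0.02.

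Of 13 genes for priming, turnover and phosphatase control, 1 was higher and 2 were lower at an unadjusted p under 0.05 (median log2 0.01). The 2 lower ones encode small inhibitors of protein phosphatase 1 that PKC phosphorylates. Ppp1r14a measured 10.9, 11.4, 12.6 and 11.9 CPM in AM6545 replicates B, D, E and F and 17.1, 18.1 and 14.9 in vehicle replicates B, D and E. Ppp1r14b measured 21.4, 24.7, 20.7 and 25.9 CPM in AM6545 replicates B, D, E and F and 38.5, 31.2 and 31.1 in vehicle replicates B, D and E. For both genes all AM6545 libraries were below all vehicle libraries. Ppp1r14a had a log2 fold change of -0.52 (SE 0.12) and Ppp1r14b of -0.53 (SE 0.12), each with an edgeR adjusted p of 0.199, and 0.0246 and 0.0265 without vehicle replicate E. With levels corrected for GC content and length these values were -0.12 and -0.05. The chaperone genes Hsp90ab1 and Hsp90aa1, which help newly made PKC to mature, had 0.09 and -0.01, or -0.05 and -0.07 without vehicle replicate B and 0.04 and -0.17 after correction for GC content and length.

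Among 14 anchors and adaptors, 2 were higher and 2 lower at an unadjusted p under 0.05 (median log2 0.09). Ywhaz, a 14-3-3 protein gene, had a log2 fold change of 0.29 (SE 0.11, edgeR adjusted p 0.267), and Pard6a, which encodes a Par6 partner of atypical PKC, had -0.29 (SE 0.11, edgeR adjusted p 0.269), or -0.02 after correction for GC content and length. The groups did not overlap for either. Without vehicle replicate B the unadjusted p was 0.0620 for Ywhaz and 0.0980 for Pard6a, which then had -0.18, and Ywhaz had 0.14 after correction for GC content and length. Sqstm1, which encodes p62, had 0.09, or 0.003 without vehicle replicate B and 0.13 after that correction. Of 18 synaptic substrates, none was higher and 2 were lower at an unadjusted p under 0.05 (median log2 -0.03). Of these, Nrgn, which encodes the calmodulin-binding protein neurogranin, had a log2 fold change of -0.37 (SE 0.14, edgeR adjusted p 0.276). Nrgn is also the most abundant of the excitatory neuron markers, so their lower sum in AM6545 includes its own difference. Nrgn had -0.22 without vehicle replicate B (unadjusted p 0.114) and -0.17 after correction for GC content and length. Snap25 and Nsf, genes of the vesicle fusion machinery, had 0.21 (edgeR adjusted p 0.365) and 0.33 (edgeR adjusted p 0.554). Snap25 had 0.08 after correction for GC content and length. Nsf had 0.11 without vehicle replicate B, and an edgeR adjusted p of 0.0356 without vehicle replicate E.

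Of 10 genes listed for other diacylglycerol receptors and their relatives, 1 was higher and 2 were lower at an unadjusted p under 0.05 (median log2 0.01). Rasgrp1, an activator of Ras, had a log2 fold change of 0.30 (edgeR adjusted p 0.342) and Rasgrp2, an activator of Rap, -0.47 (edgeR adjusted p 0.258). Unc13c, a vesicle priming gene, had -0.62 (edgeR adjusted p 0.320), and Chn1, which encodes the Rac regulator chimaerin, 0.16. Without vehicle replicate B these values were 0.14 for Rasgrp1 (unadjusted p 0.217), -0.24 for Rasgrp2 (unadjusted p 0.120), -0.34 for Unc13c (unadjusted p 0.246) and 0.11 for Chn1. After correction for GC content and length Rasgrp2 had -0.29 and Chn1 -0.004.

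**Figure D5:**
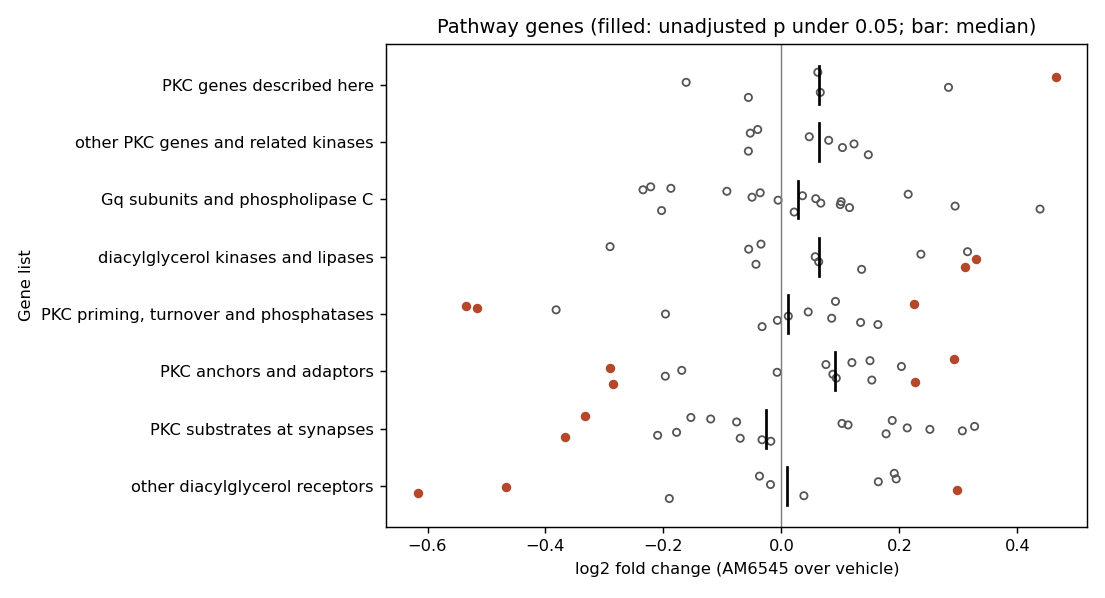
Log2 fold change of AM6545 over vehicle (x axis) of each tested gene in the PKC set and the 7 pathway lists (y axis), with filled points at an unadjusted p under 0.05 and bars at list medians. The medians lie between -0.03 and 0.09, and the filled points fall on both sides of 0 for 3 of the 7 pathway lists.

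For each PKC gene, the 2 genes whose log2 CPM followed it most closely over the 7 libraries were taken from 12487 genes with a mean of at least 50 counts, as a description. Pearson's r was 0.987 for Ubqln2 and 0.975 for Atp5f1 with Prkca, and 0.987 for Phf8 and 0.983 for Smyd5 with Prkcb. With Prkcd it was 0.971 for Tfb1m and 0.951 for Shprh, and with Prkce 0.990 for Src and 0.989 for Helz. With Prkci it was 0.998 for Sec23a and 0.996 for Parg, and with Prkcz 0.993 for Kcnn2 and 0.983 for Tspan2. Each value is among the 2 highest of 12487 genes over only 7 libraries, so high values can arise from that selection alone. Whether they also reflect shared properties of each library, such as its GC trend, was not tested.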

How the data were processed

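The files hold estimated counts per gene and per transcript for the 7 libraries, deposited by the authors without scaling to a common total. Per the submitters' processing notes they used Salmon 1.5.2 and mm10, and per the labels' protocols extraction used RNeasy and library preparation SMARTer Ultra Low Input chemistry. The annotation release and the use of strand are not given in the sources used here. Symbols, lengths, positions and coding sequences came from GENCODE M21 (GRCm38), which holds 22148 of 22248 gene and 101527 of 102392 transcript identifiers when versions are ignored. Starts of transcription came from RefSeq. Estimated counts were rounded to whole numbers and AM6545 was compared with vehicle by edgeR 4.0.16 (quasi-likelihood, TMM, filterByExpr, robust, R 4.3.3, limma 3.58.1) over all genes or transcripts, with Benjamini-Hochberg adjustment. The SE is the size of the log2 fold change over the root of F. For shares, scipy 1.17.1 gave two-sided exact permutation tests. Alternatives were DESeq2 1.42.0, limma-voom, other scalings and filters, a replicate block, GC and length correction (lowess, span 0.3), transcripts summed per gene, length-scaled shares and leaving out each library. The code was tested on simulated data.

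The members, lists and tests were chosen with earlier results of these data known. Named were the members, their transcripts with a mean share of at least 5%, and from each list the 2 genes with the highest CPM and the 2 with the smallest p. List counts include a few genes that are not reported here. Prkcb-201, Prkcb-205 and Prkcd-201 were named after their values were seen. Depth was 19174649 to 25894733 counts a library, and each member gene had at least 531.8 counts in every library.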

Additional observations from a re-analysis of the deposited data

Results flagged for a closer look

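In a group of 4, 1 library was marked where its gap to the nearest other exceeded Dixon's 95% critical value as a part of the group's range. Of 54 values examined in AM6545, 5 were marked, and chance marks about 1 in 20, or 2.7 of 54. AM6545 replicate E had the highest share of Prkcb-201 in Prkcb, 3.84%, with the other AM6545 libraries at 3.001% to 3.013% and vehicle at 2.24% to 2.45%. AM6545 replicate B had 3.77 CPM of Prkcd-201, with the other AM6545 libraries at 0.57 to 1.07 CPM and vehicle at 0.75 to 1.54. The same library had 18.04 CPM of Prkd1, with the other AM6545 libraries at 10.9 to 11.8 CPM and vehicle at 11.1 to 13.9. It also had 124 CPM of Dgkb, with the other AM6545 libraries at 102 to 106 CPM and vehicle at 78.2 to 99.2. AM6545 replicate D had a share of 99.9% for Prkci-201 in Prkci, with the other AM6545 libraries at 100% and vehicle at 99.7% to 100%. Since those AM6545 libraries were equal, any differing value would have been marked.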

How the results depend on the processing

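Of 108 recomputed gene-level results, 131 for transcripts and 99 for shares, 1 had an adjusted p under 0.05, that of Prkci without vehicle replicate E. The log2 fold change of Prkci kept its direction and an unadjusted p under 0.05 in all 18 alternatives, between 0.31 and 0.64, with adjusted p from 0.0247 to 1. Prkcd and Prkce kept their direction in all 18 (0.0002 to 0.39 and -0.31 to -0.01). Leaving out 1 library at a time gave -0.12 to 0.022 for Prkca, -0.00042 to 0.11 for Prkcz, -0.11 to 0.026 for Prkca-201, -0.35 to 0.85 for Prkcd-201 (-0.35 without AM6545 replicate B) and -0.070 to 0.0057 for Prkcz-202. Leaving out 1 library gave 0 to 1 members by adjusted p, 1 to 2 by unadjusted p, 2 to 6 transcripts by unadjusted p, and 0 to 944 genes past the threshold, the extremes being 944 without vehicle replicate E and 0 without vehicle replicate B or AM6545 replicate E. Prkcb reversed to -0.018 with GC and length correction and -0.040 with that and the replicate block, and Prkcz to -0.0022 with limma-voom. The share differences ranged from -0.99 to 0.70 percentage points for Prkcd-207 and from 0 to 0.13 for Prkca-201. With transcripts of the same coding length summed, which joins both Prkce forms, the difference of Prkce-202 was 0.0018. Genes past the threshold numbered 205 with DESeq2, 118 with limma-voom, 2 with a mean of at least 50 counts and 0 with GC and length correction, against 1. The cause of these moves was not tested. Correlations of deviations between libraries with the same letter were -0.26, -0.13 and -0.18. With so few libraries in each group, these values cannot decide whether the letters pair the libraries. With the replicate block Prkci had 0.54 (edgeR adjusted p 0.595), and no member was called. With the length of the most counted transcript, Prkce had 49.7 and Prkcz 92.6 TPM, and the order of the 6 genes was the same.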
